A study of Arabidopsis thaliana with 4 samples.

Results

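UDP-glycosyltransferase (UGT) genes were followed in detached rosette leaves of Arabidopsis thaliana that had been given flavin adenine dinucleotide (FAD), the flavin cofactor of many oxidoreductases. They were taken as the probe sets that the platform annotation assigns to 1 gene whose symbol or synonym begins with UGT and a family number, with GT72B1 and SGT among them, which gave 51 genes from 12 numbered families, each with 1 probe set, among 13356 genes with a 1-gene probe set in all. The same rule finds 64 genes in the TAIR10.1 gene table. A further 3 UGT probe sets are annotated to several genes and were left out. Both groups were wild-type Col-0 leaves from 3-week-old soil-grown plants, detached 4 h into a light period of 16 h. One group lay for 1 h on 0.1 mM FAD and the other for 1 h on plain water, the mock treatment. Each had 2 biological replicates with 1 Affymetrix array apiece, so there were 4 arrays; undetached leaves were not analysed here, and the labels do not say whether replicates came from separate plants or days.

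UGTs move a sugar from a UDP-sugar onto a small acceptor molecule. In plants their acceptors include hormones, flavonoids, phenylpropanoids, glucosinolate precursors, sterols and foreign compounds, and the glycosides formed are usually more soluble, less reactive and ready for storage in the vacuole. Many of the genes stand next to each other in tandem arrays, and closely related enzymes often share acceptors.

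Values are signal intensities, scaled before deposition to the same trimmed mean of 500.06 on every array. A member counted as measurable when its mean log2 signal reached the 40th percentile of all probe sets, which is a geometric mean signal of 63.59, and 30 of the 51 did. The other 21 were dim and are described apart. The leaf mesophyll genes RCA, LHCB4.1, PRK and SBPASE, 4 of 7 listed, were bright, with signals of 10599.8 to 45662 on FAD and 11126 to 40233 on mock arrays. The root hair genes EXPA7 and EXPA18 and the centromere histone gene HTR12, a marker of dividing cells, were dim. None of them exceeded 69.7 on any array. All 3 had both FAD arrays above both mock arrays, against 22.8% of all dim probe sets. EXPA18 read 69.7 and 36.8 on FAD, against 7.0 and 18.8 on mock arrays, EXPA7 46.1 and 53.3 against 44.9 and 6.0, and HTR12 54.8 and 36.0 against 24.8 and 21.1. Their part in the results was not tested. FMA, a guard cell lineage gene and the only 1 of 3 guard cell markers with a named probe set, read 160 and 256 on FAD and 137 and 133 on mock arrays, and its part in the results was not tested. The actin 3' to 5' signal ratio, which reads RNA integrity, was 4.70 and 5.34 on FAD and 5.42 and 5.56 on mock arrays in the second control set and 23.6 and 27.5 on FAD and 31.0 and 33.0 on mock arrays in the first; the GAPDH and ubiquitin ratios overlapped. Spike-in controls on the other arrays read a median of 5.39 times FAD replicate 2 in the first set and 0.906 times in the second. The part of these controls in the results was not tested.

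No UGT transcript passed the correction for all probe sets when treatment was the only term of the fit. This fit, in limma with Benjamini-Hochberg adjustment over 13648 probe sets, called 0 of the 30 members higher and 0 lower, against 0% and 0.0366% of all tested probe sets. At an unadjusted p under 0.05, 7 of the 30 members (23.3%) were lower on FAD and 1 (3.33%) was higher, against 3.84% and 3.03% of all tested probe sets. The count of 7 was 3 without FAD replicate 2, 4 without FAD replicate 1, 4 without mock replicate 1 and 7 without mock replicate 2. The count of 1 was 0 without either FAD array or without mock replicate 2, and 2 without mock replicate 1; it was also 0 under quantile normalization and under median centring. UGT85A7 among the 7 had both FAD arrays under the filter signal of 63.59, and the 1 higher member, UGT76D1, had both mock arrays under it, so each passed the filter through 1 treatment alone, and its count is no support for a change. In the other 28 members the counts at an unadjusted p under 0.05 were 6 lower and 0 higher. The shares of 3.84% and 3.03% were not worked out with such probe sets left out, so these counts have no matching share. The 7 were UGT85A7, UGT74D1, UGT72B3, UGT78D2, UGT84A3, UGT72B1 and UGT71C4, and in each of them the higher FAD array was below the lower mock array. No other member was separated in that direction, so the count was 7 of 30, against 15% of all tested probe sets. In 5 of the 30 the arrays were separated the other way, with FAD on top, against 22%. UGT85A7 is in the count of 7 and UGT76D1 in that of 5, and neither is support for a change here. The median log2 fold change over the members was 0.0013, against 0.050 over all tested probe sets, with 15 members below and 15 above 0, where 42.5% and 57.5% of all tested probe sets stood. In whole leaves, fewer cells of a type and less RNA per cell cannot be told apart.

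**Figure D1:**
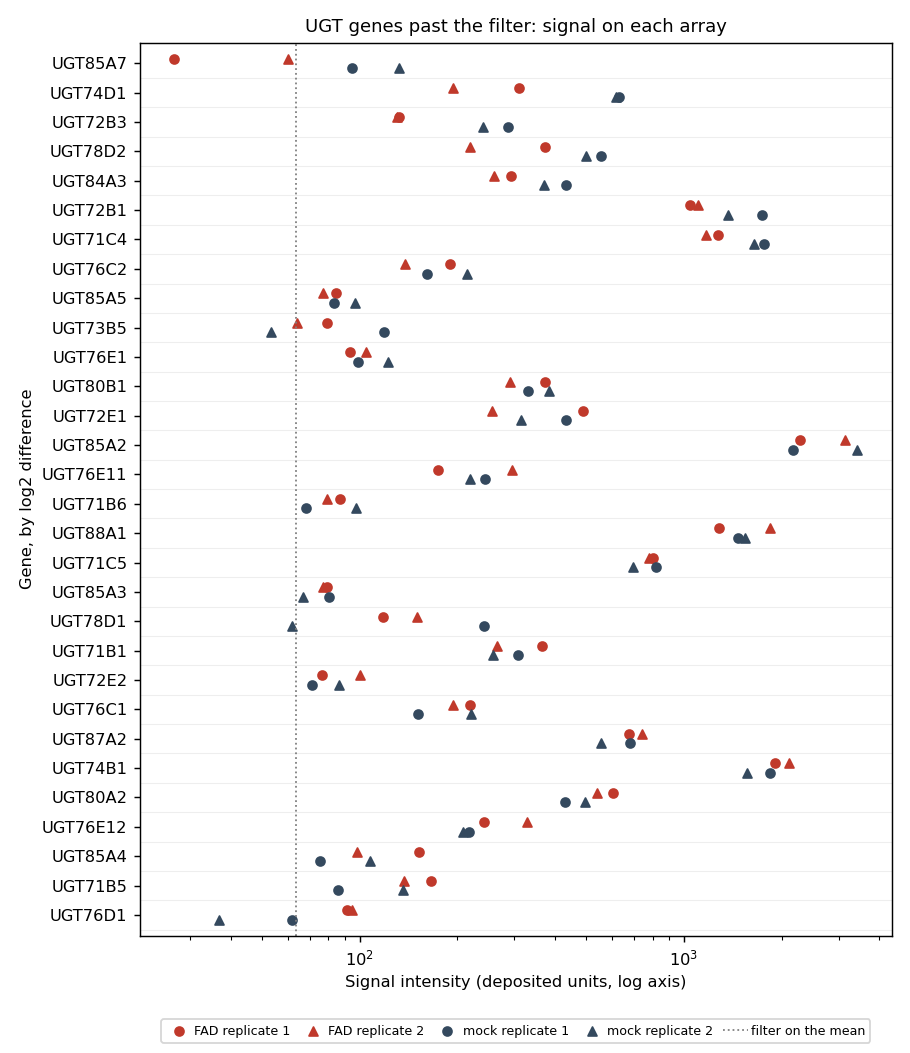
Signal on each of the 4 arrays (log axis, deposited units) for the 30 UGT genes past the filter, ordered from the lowest to the highest log2 difference of FAD minus mock; FAD arrays are red, mock arrays dark, circles replicate 1 and triangles replicate 2. In the 7 uppermost genes the red symbols lie to the left of the dark ones; levels of different genes come from different probe sets and are not comparable.

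Among members that act on hormones, the auxin enzyme had the smallest p of the family. UGT74D1 (AT2G31750), which glucosylates indole-3-acetic and indole-3-butyric acid, had signals of 309 and 194 on FAD arrays, against 631 and 617 on mock arrays. Both FAD arrays were below both mock arrays, and FAD replicate 2 was the lower. Its log2 fold change was -1.35 ± 0.25 (SE, n = 2 arrays each), with a 95% interval from -1.95 to -0.76, and the limma adjusted p was 0.243. The unadjusted p ranked it at position 52 of the 13648 probe sets. Without FAD replicate 2 the log2 fold change was -1.01 (limma adjusted p = 0.726). UGT84B1 and UGT84B2, the other auxin members, were dim.

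The 4 measurable abscisic acid and cytokinin enzymes had log2 fold changes between -0.20 and 0.17 and arrays that overlapped, with intervals wide enough to hold larger changes either way; UGT71B8 and UGT73C1, the other members of these classes, were dim. UGT71C5 (AT1G07240), which forms the glucose ester of abscisic acid, read 801 and 783 on FAD, against 822 and 695 in mock leaves. Its log2 fold change of 0.066 had an interval from -0.36 to 0.49. UGT71B6 (AT3G21780), another abscisic acid glucosyltransferase, read 86.8 and 79.2 on FAD, against 68.0 and 97.5 in mock leaves, a log2 fold change of 0.026 with an interval from -0.76 to 0.81. The cytokinin N-glucosyltransferase gene UGT76C1 (AT5G05870) read 218 and 193 on FAD, against 151 and 220.0 in mock leaves. Its direct neighbour UGT76C2 (AT5G05860), with the same activity, read 190.3 and 137 on FAD, against 161 and 214 in mock leaves. The log2 fold change of UGT76C1 was 0.17 (95% interval -0.45 to 0.79) and that of UGT76C2 was -0.20 (95% interval -0.85 to 0.45).

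UGT76D1 (AT2G26480) had the most positive log2 fold change of the 30. It encodes an enzyme that glucosylates dihydroxybenzoic acids, breakdown products of salicylic acid. It read 91.1 and 94.4 on FAD, against 61.6 and 36.7 in mock leaves. The FAD arrays lay close together and above both mock arrays, which differed more between themselves. The log2 fold change was 0.96 ± 0.39 (SE, n = 2 arrays each), with an interval from 0.053 to 1.88 and a limma adjusted p of 0.699. Both mock arrays were under the filter signal, so the gene was tested only because its FAD arrays were higher, and its p is no support for a change. Its log2 fold change was 0.64 with 32 added to each signal, 0.59 without mock replicate 2 and 1.34 without mock replicate 1. UGT74F1 and UGT76B1, both enzymes of salicylic acid glucosylation, and UGT73C7 were dim.

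Of the 5 flavonoid members, the 2 that were measurable had unlike patterns, but their 95% intervals overlapped and the difference was not tested. The 3 dim ones, UGT78D3, UGT79B1 and UGT79B6, had both FAD arrays above both mock arrays, against 22.8% of all dim probe sets. Their signals were too low for a test, at no more than 8.24 in UGT78D3 and 5.71 in UGT79B6. A count of 3 is small, and its difference from that share was not tested. UGT78D2 (AT5G17050), the 3-O-glucosyltransferase of flavonols and anthocyanidins, read 372 and 219 on FAD, against 555 and 498 in mock leaves. Both FAD arrays were lower, with FAD replicate 2 again the lower of them. The log2 fold change was -0.88 ± 0.27 (SE, n = 2 arrays each), with an interval from -1.52 to -0.24 and a limma adjusted p of 0.554; it was -0.50 without FAD replicate 2 and -1.26 without FAD replicate 1. UGT78D1 (AT1G30530), the flavonol 3-O-rhamnosyltransferase, read 118 and 150.4 on FAD, against 242 and 61.8 in mock leaves. Here the mock arrays enclosed both FAD arrays and differed by 1.97 on the log2 scale, more than any other pair of arrays of 1 treatment among the 30 members. Its log2 fold change of 0.12 had an interval from -1.23 to 1.48.

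Of the 6 measurable members that act on phenylpropanoids, lignin precursors or xenobiotics, 3 were separated with FAD below mock, against 15% of all tested probe sets, and 0 passed the correction. Their median log2 fold change was -0.34, against 0.050 over all tested probe sets. A count of 3 in 6 is small, and its difference from the share over all probe sets was not tested. The class had 4 dim members as well. Of these, UGT72E3 had both FAD arrays above mock, UGT84A4 had both below, and UGT73B4 and UGT84A1 overlapped. UGT72B3 (AT1G01420) read 132 and 130.4 on FAD, against 287 and 240.2 in mock leaves. The pair of FAD arrays was nearly equal, and the log2 fold change was -1.0 ± 0.23 (SE, n = 2 arrays each), with an interval from -1.54 to -0.46 and a limma adjusted p of 0.409. UGT72B1 (GT72B1, AT4G01070), its close relative, which conjugates chlorinated phenols and anilines and also monolignols, read 1045 and 1105 on FAD, against 1739 and 1371 in mock leaves. Its log2 fold change was -0.52, with an interval from -0.95 to -0.092 (limma adjusted p = 0.614). UGT84A3 (AT4G15490), which forms glucose esters of hydroxycinnamic acids, read 293 and 260 on FAD, against 433 and 370.0 in mock leaves. The log2 fold change was -0.54, with an interval from -1.02 to -0.060 (limma adjusted p = 0.653).

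The other 3 measurable members of this class overlapped between treatments. UGT72E1 (AT3G50740) and UGT72E2 (AT5G66690) belong to the branch that glucosylates monolignols and their aldehydes. UGT72E1 read 487 and 257 on FAD, against 431 and 314 in mock leaves. UGT72E2 read 76.7 and 100.3 on FAD, against 71.1 and 86.5 in mock leaves. UGT73B5 (AT2G15480), known for its part in the response to bacterial infection, read 79.4 and 64.2 on FAD, against 119 and 53.3 in mock leaves. In UGT72E1 replicate 1 was the higher array of both treatments, and in UGT72E2 replicate 2 was. The log2 fold changes of the 3 were -0.059, 0.16 and -0.16, and all their intervals included 0.

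**Figure D2:**
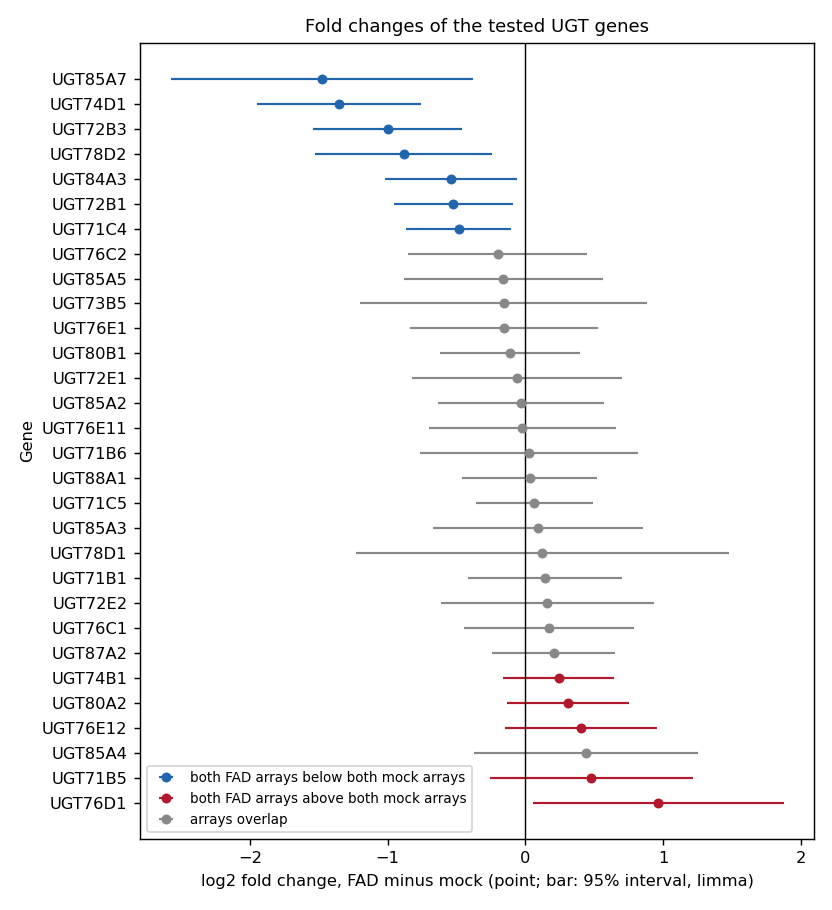
Log2 fold change of FAD minus mock for the 30 tested UGT genes (points) with the 95% interval from limma (bars); blue marks genes whose FAD arrays are separated below mock, red those separated above it, grey those that overlap. The intervals of 7 blue genes and of UGT76D1 lie off 0 before any correction for multiple tests.

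UGT74B1 (AT1G24100), the S-glucosyltransferase of glucosinolate synthesis, read 1908 and 2114 on FAD, against 1842 and 1567 in mock leaves. Both FAD arrays were above both mock arrays, by a margin smaller than the difference within either treatment, and the log2 fold change of 0.24 had an interval from -0.16 to 0.64 (limma adjusted p = 0.823). The sterol glucosyltransferase gene SGT (UGT80A2, AT3G07020) read 604 and 539 on FAD, against 428 and 494 in mock leaves, a log2 fold change of 0.31 with an interval from -0.13 to 0.76. UGT80B1 (AT1G43620), the other sterol glucosyltransferase gene, known for its seed coat phenotype, read 373 and 292 on FAD, against 331 and 384 in mock leaves. Its arrays overlapped and the log2 fold change was -0.11, with an interval from -0.62 to 0.40. The difference between these sterol genes was not tested.

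In the remaining 13 measurable members, to which no acceptor class was assigned, 2 had both FAD arrays lower, 2 had both higher and 9 overlapped, against 15% lower and 22% higher over all tested probe sets; such small counts are near those shares. UGT85A7 (AT1G22340) had the most negative log2 fold change of the 30, but its signals were low and its FAD arrays far apart, at 26.8 and 60.1 on FAD, against 94.7 and 131.7 in mock leaves. The log2 fold change was -1.48 ± 0.47 (SE, n = 2 arrays each), with an interval from -2.57 to -0.38 and a limma adjusted p of 0.557. Both FAD arrays were under the filter signal, so it was tested only because its mock arrays were higher, and its p is no support for a change. This log2 fold change was -0.97 with 32 added to each signal, -0.89 without FAD replicate 1 and -2.06 without FAD replicate 2. UGT71C4 (AT1G07250) showed the opposite kind of pattern, a small difference between tight pairs, at 1269.7 and 1172 on FAD, against 1766 and 1646 in mock leaves. Its log2 fold change was -0.48, with an interval from -0.87 to -0.10 (limma adjusted p = 0.582).

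UGT71B5 (AT4G15280) read 166 and 137 on FAD, against 85.9 and 136 in mock leaves, so the lower FAD array was almost level with the higher mock array. UGT76E12 (AT3G46660) read 241 and 329 on FAD, against 217 and 209 in mock leaves. UGT85A4 (AT1G78270) read 152 and 98.3 on FAD, against 75.5 and 108 in mock leaves. The log2 fold changes of the 3 were 0.48, 0.40 and 0.44, every interval included 0, and only the arrays of UGT85A4 overlapped. With 1 array left out these values ran from 0.15 to 0.81 in UGT71B5, from 0.18 to 0.63 in UGT76E12 and from 0.12 to 0.75 in UGT85A4. UGT87A2 (AT2G30140), known as a regulator of flowering time, had a log2 fold change of 0.20 at signals of 677 and 741 on FAD, against 681 and 554 in mock leaves. UGT88A1 had 0.031, UGT71B1 0.14, UGT76E1 -0.16 and UGT76E11 -0.023, with arrays that overlapped in each.

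Some tandem neighbours had unlike log2 fold changes, but their 95% intervals overlapped. Of the 51 members, 31 stood in 13 groups of neighbours with at most 2 other genes between them, and 5 groups had more than 1 measurable member. In the UGT85A group, UGT85A7, which passed the filter through its mock arrays alone, had the value of -1.48 given above. UGT85A5 had -0.16, UGT85A2 -0.029 and UGT85A3 0.090. UGT85A2 (AT1G22360) read 2279 and 3144 on FAD, against 2177 and 3427 in mock leaves, so that replicate 2 was the higher array of both treatments. UGT71C4 and its direct neighbour UGT71C5 had log2 fold changes of -0.48 and 0.066, and UGT76E11 and UGT76E12 had -0.023 and 0.40. In the UGT84A group, UGT84A3 had both FAD arrays lower, its neighbour UGT84A4 was dim at 57.6 and 40.9 on FAD, against 60.9 and 59.7 in mock leaves, and UGT84A1 was dim with arrays that overlapped. Differences between neighbours were not tested. Related UGT genes can share sequence, and cross-hybridisation between them was not tested, since probe sequences were not analysed here; all 51 members had a probe set whose name carries no mark of shared probes.

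The difference between treatments exceeded the difference between arrays of the same treatment in 10 of the 30 members. These were the 7 lower ones, against 10.2% of all tested probe sets, and 3 with a positive value, UGT76D1, SGT and UGT74B1, against 14.7%. UGT85A7 and UGT76D1 passed the filter through 1 treatment alone, so their place in these counts is no support for a change. Over the 30 members the larger of the differences within a treatment had a median of 0.47 on the log2 scale and ran from 0.12 in UGT71C4 to 1.97 in UGT78D1. In size, 3 members were at least 2-fold lower on FAD, UGT85A7, UGT74D1 and, just at that size, UGT72B3, and 0 were at least 2-fold higher, against 0.828% and 0.432% of all tested probe sets. Without UGT85A7, whose FAD arrays were under the filter signal, 2 were at least 2-fold lower. The share of 0.828% was not worked out with such probe sets left out.

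**Figure D3:**
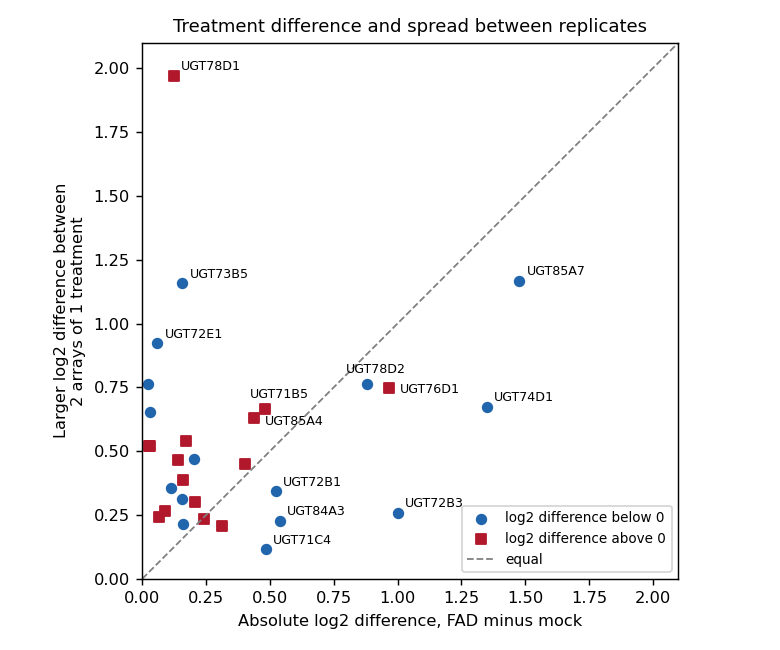
Absolute log2 difference of FAD minus mock (horizontal) against the larger log2 difference between the 2 arrays of 1 treatment (vertical) for the 30 tested UGT genes; on the dashed line both are equal. The 10 genes right of the line include UGT74D1 and UGT72B3, while UGT78D1 lies far above it, at 1.97.

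The 21 dim members had no test. Of these, 18 stayed below the filter signal on every array, and the signals of all 21 lay between 1.38 and 91.0. FAD was separated below mock in 4 of the 21, separated above it in 4 and overlapping with it in 13, against 12.1% below and 22.8% above over all 9098 dim probe sets. UGT79B1 (UF3GT, AT5G54060), which adds xylose to anthocyanins, read 56.3 and 52.7 on FAD, against 19.7 and 33.1 in mock leaves. Its pathway partner DFR, dihydroflavonol reductase, was dim as well, at 22.4 and 28.9 on FAD, against 4.52 and 6.70 in mock leaves. In both, the FAD arrays were above both mock arrays at signals too low for a test. UGT78D3, UGT72E3 and UGT79B6 also had both FAD arrays higher, but none of them reached 10 on any array. UGT84B2, UGT73B1, UGT71C2 and UGT84A4 had both FAD arrays lower.

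Arrays of the same treatment differed by more than 4-fold in 9 of the dim members and in 0 of the 30 measurable ones. The matching shares of all dim and all tested probe sets were not worked out, so these counts are not read as a trait of UGT genes. UGT73C2 read 4.96 and 48.9 on FAD, against 1.58 and 13.3 in mock leaves, with replicate 2 higher in both treatments. UGT73C7 had the same form, at 4.62 and 37.2 on FAD, against 3.67 and 31.6 in mock leaves. UGT73C1 read 2.66 and 4.10 on FAD, against 2.09 and 35.1 in mock leaves, and only mock replicate 2 stood out. The remaining dim members were UGT71B8, UGT71C1, UGT71C3, UGT73B4, UGT73D1, UGT74F1, UGT76B1, UGT76E2, UGT84A1 and UGT84B1, all with overlapping arrays.

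**Figure D4:**
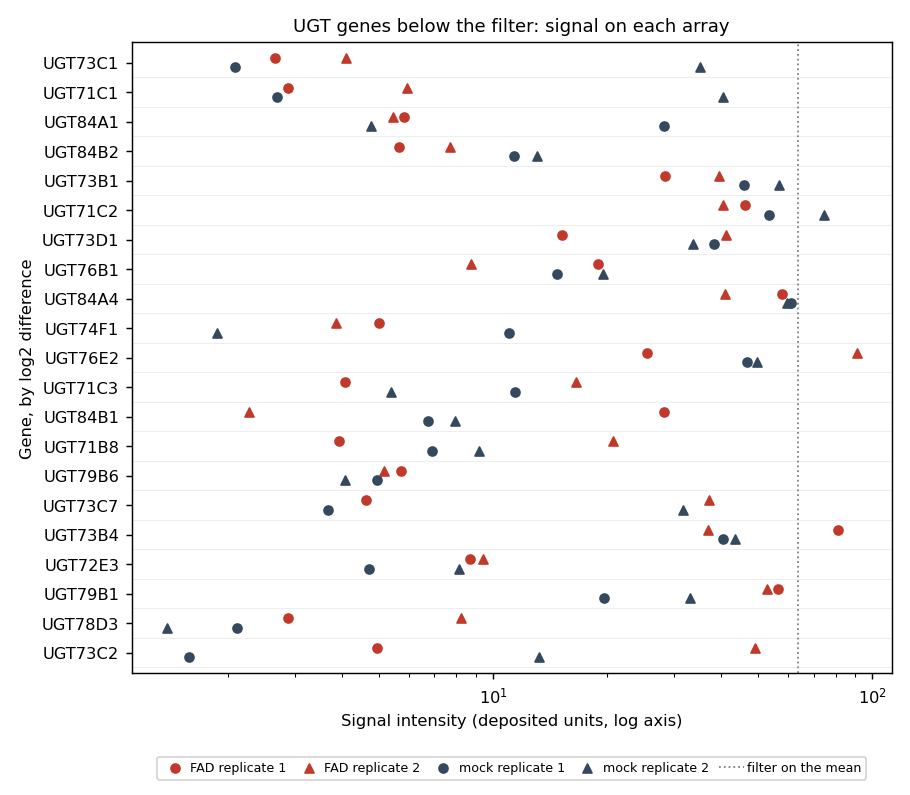
Signal on each of the 4 arrays (log axis, deposited units) for the 21 UGT genes below the filter, in the order of their log2 difference of FAD minus mock; FAD arrays are red, mock arrays dark, circles replicate 1, triangles replicate 2, and the dotted line is the filter on the mean, 63.59. Arrays of 1 treatment lie far apart in several genes, such as UGT73C2.

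Genes that act beside UGTs were covered thinly by the annotation. Glutathione S-transferases, which conjugate foreign and reactive compounds with glutathione, were the largest list, with 14 named and 7 measurable. In limma 0 of the 7 passed in either direction and 1 had an unadjusted p under 0.05, on the lower side, against 3.84% lower and 3.03% higher over all tested probe sets. Their median log2 fold change was 0.088, against 0.050 over all tested probe sets. GSTU16 (AT1G59700) read 285 and 382 on FAD, against 572 and 520.1 in mock leaves, a log2 fold change of -0.72 with an interval from -1.23 to -0.22 (limma adjusted p = 0.539). ATGSTF13 read 69.6 and 101.9 on FAD, against 69.1 and 57.9 in mock leaves, a log2 fold change of 0.41 (limma adjusted p = 0.858). On FAD, GSTU16 was below mock on either array, and ATGSTF13 was above it, in its case by less than 1 signal unit on FAD replicate 1.

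AT5G52050 (DTX50), a MATE efflux carrier known to export abscisic acid, was the only named member of the conjugate transporter list. It read 563 and 1011 on FAD, against 343 and 360.2 in mock leaves, a log2 fold change of 1.10 ± 0.28 (SE, n = 2 arrays each) with an interval from 0.44 to 1.76 and a limma adjusted p of 0.466. Both FAD arrays were above both mock arrays, and FAD replicate 2 was the higher. USP (AT5G52560), which makes UDP-sugars from sugar phosphates, read 1015 and 984 on FAD, against 1022 and 811 in mock leaves, with overlapping arrays and a log2 fold change of 0.13. The phenylpropanoid and flavonoid list had DFR alone, which was dim, and no gene of the 15 in the glucosinolate synthesis list had a named probe set.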

How the data were processed

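The data are 4 one-colour Affymetrix arrays, 2 of FAD-treated and 2 of mock-treated leaves. The deposited table holds a linear intensity for every probe set, made with GCOS per the submitters' processing notes. For the version of GCOS, its summary method and the genome build, the entry is not given in the sources used here. Between arrays the 2% trimmed means differed by 0.000764%, so the authors' scaling was kept; it cannot show a change in total mRNA. The number of arrays limits the precision.

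After log2 transformation with no added constant, 64 control probe sets were set aside and 13648 of 22746 others passed the filter at the 40th percentile. The treatments were compared in limma 3.58.1 (R 4.3.3; eBayes with a mean-variance trend; group as sole term; 2 residual and 5.43 prior degrees of freedom), with Benjamini-Hochberg adjustment over all tested probe sets and a threshold of 0.05. P-values cover only the spread between these arrays, which may be technical. With 2 arrays against 2, exact permutation gives no two-sided p below 0.333 and was not used. Tested on simulated data for this comparison (13648 probe sets, 200 of them changed), the fit recovered 19.1% of the changes of 2-fold, 82.4% of those of 4-fold and 96.1% of those of 8-fold. False calls made up 6.21%. The simulated noise was normal and independent, with variances from the fit's own prior. It held no replicate or array effect, so these rates hold only for data of that form. The median SE was 0.27 over the 30 tested members, against 0.23 over all tested probe sets.

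Symbols came from the platform annotation and the TAIR10.1 gene table, which also gave gene order; no coordinates are given. Every member could be named. Per-array values were given for the 6 highest and 6 lowest log2 fold changes, for members with separate arrays and for hormone, flavonoid, phenylpropanoid and glucosinolate enzymes, and of each related list for the 2 genes with the largest moderated t. Values of UGT85A2, SGT's relative UGT80B1, UGT87A2, the markers and the dim genes were added after they were seen. The members and lists were chosen with earlier results of these data known. Of the phloem, trichome and dividing cell markers, SWEET11 had a log2 fold change of -0.022, and no trichome gene was named. Alternatives covered normalization, the added constant, the filter, the variance model, array weights, a replicate block and leaving out each array.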

Additional observations from a re-analysis of the deposited data

How the results depend on the processing

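In limma, no UGT member was called in the main setting or in 12 of 13 alternatives. With the replicate number as a block, 1 member was called lower on FAD, UGT74D1 (log2 fold change -1.35, limma adjusted p = 0.00360), and 0 higher; over the 13 alternatives its adjusted p ran from 0.00360 to 0.726. What arrays of 1 replicate number have in common is not labelled, and the difference of replicate 2 minus replicate 1 correlated between FAD and mock at 0.219 across all tested probe sets and 0.0169 across the 30 members. Over all probe sets, the counts called higher and lower, 0 and 5 in the main setting, were 36 and 153 with the block; median centring gave 18 lower, testing all probe sets 2, the 60th percentile filter 2 and a fit with no mean-variance trend 0. With 1 array left out it ran from 1 to 4, and the higher count from 0 to 1. A lone array was then assumed to vary like the others.

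The count of members with both FAD arrays above both mock arrays, 5, was 3 under median centring and also under the 60th percentile filter, 9 without a filter, and 8 to 11 with 1 array left out; the count below, 7, was 11 with no filter and 10 to 14 with 1 array left out, where fewer arrays separate more easily. With no filter all 51 members count. The members split into 15 below and 15 above 0, which was 18 and 12 with median centring. Their median log2 fold change, 0.0013, was -0.061 under quantile normalization and -0.088 under median centring, and the glutathione S-transferase median, 0.088, was -0.0015 under median centring, -0.11 without a filter and -0.11 under the 60th percentile filter.

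The sign held in all alternatives run for 15 members, among them the 7 lower ones and UGT76D1, and turned in at least 1 for the other 15. Most alternatives could not turn it where both FAD arrays lay on 1 side of both mock arrays, as in the 7 and UGT76D1. There, leaving out an array or adding a constant keeps the sign. The filter, variance model, array weights and block left the log2 fold change unchanged. For such members only quantile normalization and median centring could have turned the sign. Under quantile normalization UGT71B6 had -0.12 and UGT85A3 -0.048, and under median centring UGT71B6 had -0.064, UGT71C5 -0.023 and UGT88A1 -0.059. With 1 array left out the log2 fold change ran from -0.091 to 0.37 in UGT71B1, -0.23 to 0.29 in UGT71B6, -0.055 to 0.19 in UGT71C5, -0.52 to 0.40 in UGT72E1, -0.032 to 0.35 in UGT72E2, -0.74 to 0.42 in UGT73B5, -0.099 to 0.44 in UGT76C1, -0.44 to 0.034 in UGT76C2, -0.31 to 0.0015 in UGT76E1, -0.41 to 0.36 in UGT76E11, -0.86 to 1.11 in UGT78D1, -0.29 to 0.067 in UGT80B1, -0.36 to 0.30 in UGT85A2, -0.042 to 0.22 in UGT85A3 and -0.23 to 0.29 in UGT88A1. The cause was not tested. Of the members whose sign held, UGT74B1 ran from 0.13 to 0.36, SGT (UGT80A2) from 0.21 to 0.41, UGT85A5 from -0.27 to -0.051 and UGT87A2 from 0.055 to 0.35. Every member had 1 probe set, so averaging probe sets changed nothing.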
